A study of Mus musculus with 8 samples.

Results

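The laminins and their closest partners in the basement membrane were examined in mouse ventricle at E10.5: 10 genes, Lama1, Lama4, Lama5, Lamb1, Lamb2, Lamc1, Nid1, Nid2, Hspg2 and Agrn, chosen by name out of the 55291 gene symbols counted. RNA-seq of polyA RNA was carried out on ventricular tissue, with 4 libraries from Pkn2 cKO embryos (Pkn2 fl/fl carrying the XMLC2-Cre driver, which deletes the floxed kinase gene in cardiomyocytes) and 4 from Cre-negative Pkn2 fl/fl littermate controls on a C57BL/6N background. Both groups carried the floxed alleles and the cKO group alone carried Cre, so an effect of Cre itself cannot be told apart from the loss of Pkn2. The driver acts in cardiomyocytes, whereas the tissue also held endocardial, endothelial, epicardial and cushion cells that keep Pkn2, and a bulk library measures all of them together.

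Basement membranes are thin sheets of extracellular matrix under epithelia and endothelia and around muscle cells. Laminins, trimers of an alpha, a beta and a gamma chain, form a network that binds integrins and dystroglycan on the cell surface, and a separate network of type IV collagen lies beside it. Nidogens bridge the laminin and collagen networks, and the heparan sulfate proteoglycans perlecan (Hspg2) and agrin (Agrn) are bound into this matrix and hold growth factors. In the early ventricle such a matrix separates the endocardium from the myocardium, with the cardiac jelly between them, and another underlies the epicardium.

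All 10 genes were well covered, with 871 to 80389 counts per gene and library. Of the 26820 genes tested, 230 (0.858%) passed an adjusted p of 0.05 (edgeR quasi-likelihood test, Benjamini-Hochberg adjustment over all genes tested), and 1 of the 10 did: Nid1, 1.43-fold higher in cKO. DESeq2 and limma-voom called the same gene alone. In edgeR 0 of the 10 also passed a fold change of 1.5, as 0.365% of all genes did, and in DESeq2 and limma-voom likewise 0. At an unadjusted p under 0.05, which 12.8% of all genes reached, stood 4 genes with higher values in cKO (Nid1, Hspg2, Agrn and Lama4, against 6.61% of all genes in that direction) and 1 with lower values (Nid2, against 6.2%). The estimate was above 0 for 9 of the 10, against 49.8% of all genes, and the median log2 fold change was 0.12 for the 10 and −0.03 for the 2200 genes with a mean of at least 100 CPM (counts scaled to a library size that TMM factors adjust). Of these 2200 genes, 1.73% passed the adjusted threshold in edgeR, a larger share than the 0.858% of all genes. The 10 share 8 libraries, so the direction of 1 gene is not independent of that of the next. They were also chosen with earlier results of these data known, so these counts and shares are descriptions.

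Pkn2 itself fell from 144 ± 9.85 to 81.2 ± 3.07 CPM (mean ± SD, n = 4 each; log2 fold change −0.83, SE 0.06, adjusted p = 7.67e-06), with every cKO library below every control. Libraries held 47559845 to 56660938 counts. Cardiomyocyte markers (12 genes, all detected) summed to 38258 to 42473 CPM over the 8 libraries, in accord with the labelled tissue.

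**Figure D1:**
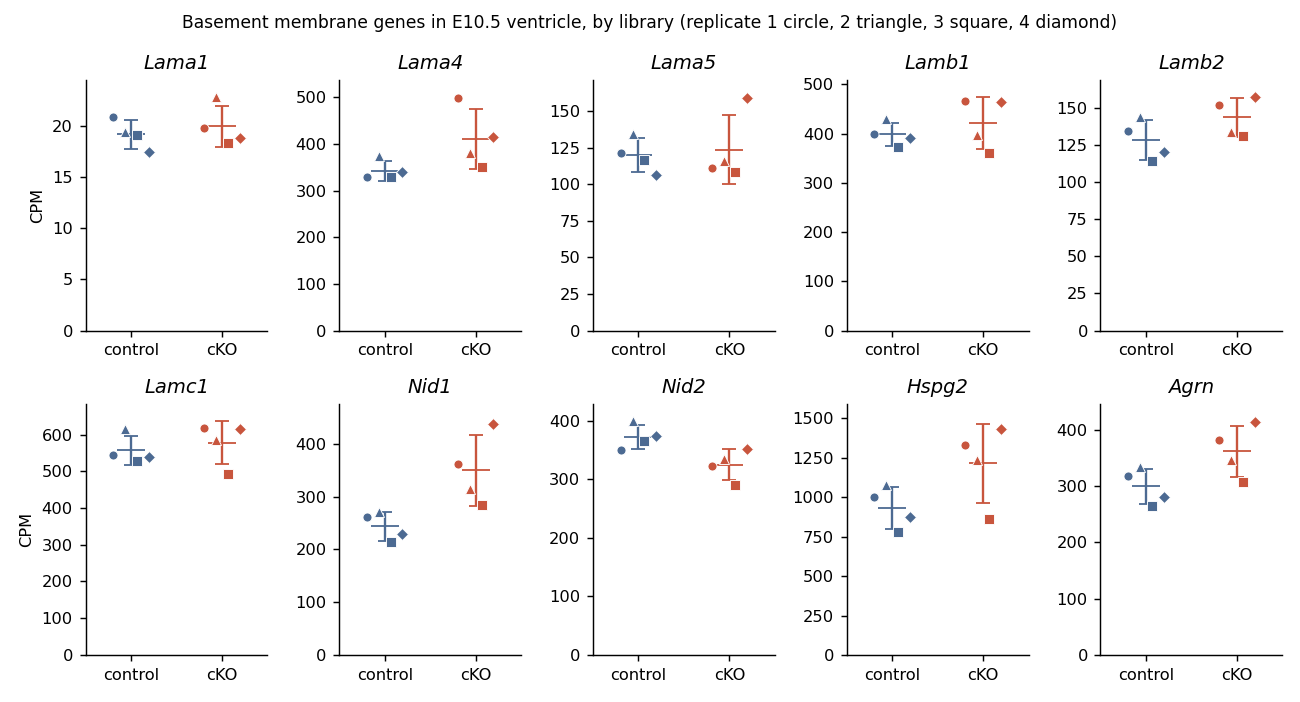
Normalised counts (CPM, TMM-scaled library sizes, each vertical axis from 0) of the 10 basement membrane genes, with 1 symbol per library and shape giving the replicate number; horizontal bar and whiskers show mean and SD of 4 libraries. Nid1 is the gene whose cKO libraries all lie above the controls, at 284 to 438 against 214 to 272 CPM, and cKO replicate 3 is the lowest cKO library in every panel.

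The sequences before 3 of the genes are shown because these 3, Nid1, Hspg2 and Agrn, had the largest positive estimates of the 10, and Hspg2 and Agrn came nearest to Nid1 in profile over the libraries. They are the bases of the RefSeq promoter windows (GRCm38.p6) that lie upstream of the gene start, written 5′ to 3′ on the gene's strand, with GC boxes (GGGCGG on either strand) in capitals. The Nid1 window is chr13:13437352-13437550 on the plus strand, the Hspg2 window chr4:137468553-137468768 on the plus strand, and the Agrn window chr4:156197489-156197738 on the minus strand.
Nid1: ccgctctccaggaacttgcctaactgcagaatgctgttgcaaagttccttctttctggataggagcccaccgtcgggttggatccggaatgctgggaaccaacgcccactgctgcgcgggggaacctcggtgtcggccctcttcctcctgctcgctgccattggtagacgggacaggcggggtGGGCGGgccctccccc
Hspg2: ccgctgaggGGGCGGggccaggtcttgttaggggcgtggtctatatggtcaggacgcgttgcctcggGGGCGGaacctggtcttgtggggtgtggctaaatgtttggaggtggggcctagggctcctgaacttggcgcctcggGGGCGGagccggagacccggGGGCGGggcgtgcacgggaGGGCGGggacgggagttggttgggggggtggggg
Agrn: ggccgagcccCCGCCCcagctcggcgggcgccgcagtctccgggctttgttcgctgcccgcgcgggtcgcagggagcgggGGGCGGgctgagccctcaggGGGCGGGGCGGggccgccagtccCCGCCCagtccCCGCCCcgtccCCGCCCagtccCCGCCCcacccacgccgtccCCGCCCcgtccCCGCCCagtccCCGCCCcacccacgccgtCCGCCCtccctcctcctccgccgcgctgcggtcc

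The Nid1 stretch held 1 GC box in 199 bases, that of Hspg2 held 5 in 216 bases and that of Agrn held 12 in 250 bases, so the 3 differ in how densely these letters recur. Over complete windows of 300 bases, which reach 50 bases past the start, GC boxes were present in 6 of the 7 windows found for 6 of the 10 genes (Lama5, Hspg2, Agrn, Lamb2, Lamb1 and Nid1) and in 35.7% of all 32851 windows. The CCAAT box (CCAAT) was in 2 of the 7 windows, those of Nid1 and Lamb1, and in 37.4% of all windows. The TEAD motif letters CATTCC were in the Nid1 window alone of the 7 and in 14.7% of all windows. No match was found in the 7 windows for TATAAA (13.6% of all windows), the ETS letters CCGGAAG (8.86%), the GATA letters AGATAA (11.2%) or the E-box CACGTG (7.15%), all searched on both strands. A match is a run of letters and was not measured as a bound site.

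Of the 2 nidogens, Nid1 rose in cKO, and Nid2 had a lower mean there without passing the threshold. Nid1 (ENSMUSG00000005397.8, chr13:13437551-13512269, plus strand) was measured at 261, 272, 214 and 229.6 CPM in control replicates 1 to 4 and at 362, 316, 284 and 438 CPM in cKO replicates 1 to 4. The lowest cKO library lay above the highest control, and 1 of the 10 genes thus had no overlap between groups, as had 6.91% of all genes tested (3.14% with every cKO library above every control). Nid1 rose by 0.52 on the log2 scale (SE 0.11, 95% confidence interval 0.29 to 0.75, adjusted p = 0.0331).

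The call for Nid1 was close to the threshold and depended on which libraries were included. It was kept without control replicate 2 or cKO replicate 2, 3 or 4, and lost without control replicate 1, 3 or 4 or without cKO replicate 1, with adjusted p-values of 0.0900, 0.122, 0.131 and 0.110, while the log2 fold change stayed between 0.40 and 0.61 whichever library was left out. It was also lost in limma fits to log2(TPM + 1), at an adjusted p of 0.309, where only 2 genes of all passed.

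Nid2 (ENSMUSG00000021806.4, chr14:19751265-19811787, plus strand) was measured at 351, 399, 365 and 374 CPM in control replicates 1 to 4 and at 322, 334, 290 and 352 CPM in cKO replicates 1 to 4. In all, 3 cKO libraries were below every control and cKO replicate 4 exceeded control replicate 1 by a small margin, so the groups overlapped. On the log2 scale the change was −0.20 (SE 0.07, 95% confidence interval −0.34 to −0.06, adjusted p = 0.184). The last 437 bases of Nid2 overlap Rtraf on the opposite strand, and since the library kit does not mark strand, reads there cannot be told apart; Rtraf had a log2 fold change of −0.07 (adjusted p = 0.763).

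Per length, in TPM (length-scaled abundances that sum to the same total in every library), Nid1 was the lesser nidogen in every library. It made up 36.9%, 34.8%, 31.4% and 32.7% of nidogen transcripts in control replicates 1 to 4 and 47.1%, 42.7%, 43.5% and 49.6% in cKO replicates 1 to 4. The mean share was 45.7% ± 3.20 in cKO and 33.9% ± 2.42 in control (SD, n = 4 each), a difference of 11.8 percentage points without overlap. The two-sided exact permutation test gave p = 0.0286, the smallest that 4 against 4 allows, and 0.229 after Benjamini-Hochberg adjustment over the 8 shares tested. The sum of both nidogens was 234 ± 31.4 TPM in cKO and 216 ± 19.3 TPM in control, with overlapping libraries. In these libraries the nidogen transcripts were closer to equal amounts in cKO than in control, a difference that did not pass the adjusted threshold.

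**Figure D2:**
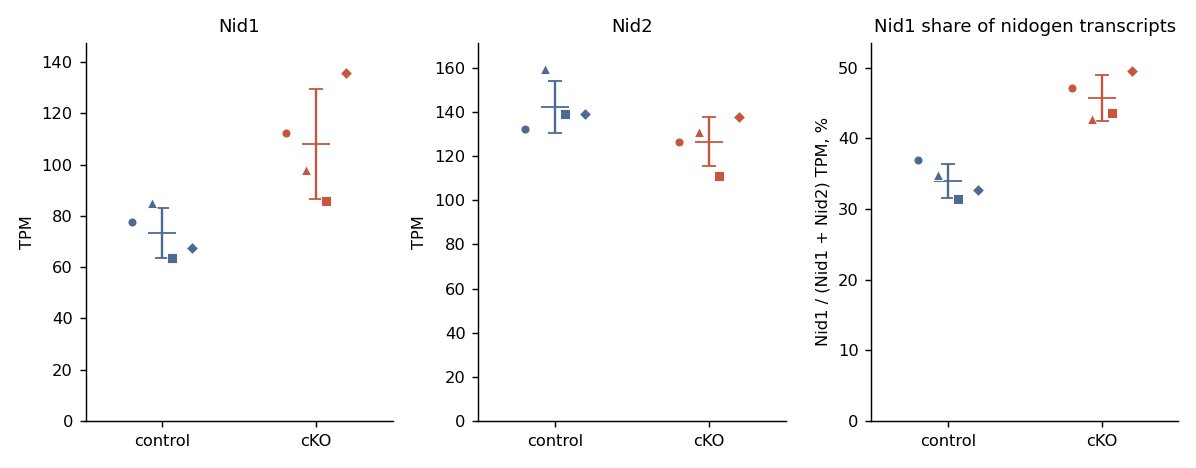
Transcript levels of Nid1 and Nid2 (TPM) and the share of Nid1 in their sum (percent), 1 symbol per library with mean and SD of 4 libraries. The share was 31.4% to 36.9% in controls and 42.7% to 49.6% in cKO, and Nid2 was slightly lower in cKO while Nid1 was higher.

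Both proteoglycans had higher means in cKO without passing the adjusted threshold. Hspg2, which encodes perlecan (ENSMUSG00000028763.18, chr4:137468769-137570630, plus strand), was measured at 999.6, 1077, 780.5 and 872 CPM in control replicates 1 to 4 and at 1333, 1236, 859.8 and 1435 CPM in cKO replicates 1 to 4. In 3 of 4 cKO libraries it exceeded every control, and cKO replicate 3 lay below control replicates 1, 2 and 4. Its log2 fold change was 0.38 (SE 0.13, 95% confidence interval 0.11 to 0.65, adjusted p = 0.183).

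Agrn, best known for organising the neuromuscular synapse (ENSMUSG00000041936.18, chr4:156165290-156197488, minus strand), was measured at 319, 333, 265 and 281 CPM in control replicates 1 to 4 and at 381, 346, 307 and 413 CPM in cKO replicates 1 to 4. Again 3 of 4 cKO libraries lay above every control, and cKO replicate 3 lay between the controls. For Agrn the log2 fold change was 0.27 (SE 0.09, 95% confidence interval 0.09 to 0.46, adjusted p = 0.171). Without cKO replicate 3 both genes passed, with log2 fold changes of 0.52 for Hspg2 (adjusted p = 0.00898) and 0.35 for Agrn (adjusted p = 0.0361). Leaving out that library also raised the calls over all genes from 230 to 744. Without any other 1 library neither gene passed, at adjusted p-values of 0.158 to 0.418 for Hspg2 and 0.138 to 0.393 for Agrn. Agrn was 37.5% ± 2.57 of the summed TPM of the pair in cKO and 39.1% ± 0.988 in control (SD, n = 4; two-sided exact permutation p = 0.343, adjusted 0.371).

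Of the 3 laminin alpha chains, Lama4 alone reached an unadjusted p under 0.05. Lama4, the alpha chain of endothelial and mesenchymal laminins (ENSMUSG00000019846.11, chr10:38965515-39110188, plus strand), was measured at 328, 374, 329.9 and 339 CPM in control replicates 1 to 4 and at 498, 380.3, 349.8 and 415 CPM in cKO replicates 1 to 4. The high values were cKO replicates 1 and 4, and cKO replicate 3 lay below control replicate 2. The log2 fold change was 0.26 (SE 0.09, 95% confidence interval 0.07 to 0.45, adjusted p = 0.193), and without cKO replicate 3 it was 0.33 (adjusted p = 0.0415). Without any other 1 library Lama4 did not pass, and its log2 fold change was 0.16 without cKO replicate 1 (adjusted p = 0.479).

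Lama5, an alpha chain of epithelial and vascular basement membranes (ENSMUSG00000015647.9, chr2:180176373-180225859, minus strand), was measured at 121, 134, 117 and 107 CPM in control replicates 1 to 4 and at 111, 116, 109 and 159 CPM in cKO replicates 1 to 4. A single library, cKO replicate 4, stood above all others, and the other 3 cKO libraries lay within the control range. Its log2 fold change was 0.05 (SE 0.10, adjusted p = 0.921) and turned to −0.09 without cKO replicate 4 (adjusted p = 0.719).

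Lama1, the alpha chain of the earliest embryonic basement membranes (ENSMUSG00000032796.8, chr17:67697259-67822647, plus strand), was the least abundant of the 10, at 20.9, 19.4, 19.2 and 17.4 CPM in control replicates 1 to 4 and 19.8, 22.9, 18.4 and 18.8 CPM in cKO replicates 1 to 4. The groups overlapped, and cKO replicate 2 was the 1 cKO library above every control. For Lama1 the log2 fold change was 0.06 (SE 0.09, 95% confidence interval −0.13 to 0.24, adjusted p = 0.866).

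Neither beta chain nor the gamma chain passed the threshold. Lamb1, the main beta chain here (ENSMUSG00000002900.17, chr12:31265234-31329644, plus strand), was measured at 400.2, 429.9, 373 and 391 CPM in control replicates 1 to 4 and at 467, 396, 360.5 and 465 CPM in cKO replicates 1 to 4. Of its cKO libraries, 2 lay above the controls and 1 below. Its log2 fold change was 0.08 (SE 0.08, 95% confidence interval −0.08 to 0.25, adjusted p = 0.755).

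Lamb2, the beta chain of synaptic, renal and vascular laminins (ENSMUSG00000052911.9, chr9:108479857-108490530, plus strand), was measured at 135, 144, 114 and 120.4 CPM in control replicates 1 to 4 and at 152, 134, 131 and 157 CPM in cKO replicates 1 to 4. Replicates 1 and 4 of the cKO group were the highest of the 8 libraries and the others overlapped the controls. The log2 fold change was 0.16 (SE 0.08, 95% confidence interval −0.003 to 0.33, adjusted p = 0.404).

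Lamc1, the gamma chain shared by most laminins (ENSMUSG00000026478.14, chr1:153218922-153332786, minus strand), was measured at 545, 616, 529 and 540.0 CPM in control replicates 1 to 4 and at 619, 585, 492 and 616 CPM in cKO replicates 1 to 4. Both the lowest and the highest of the 8 libraries were cKO libraries. The log2 fold change was 0.05 (SE 0.07, 95% confidence interval −0.11 to 0.21, adjusted p = 0.855), an interval that lies within a change of 1.5-fold in either direction.

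**Figure D3:**
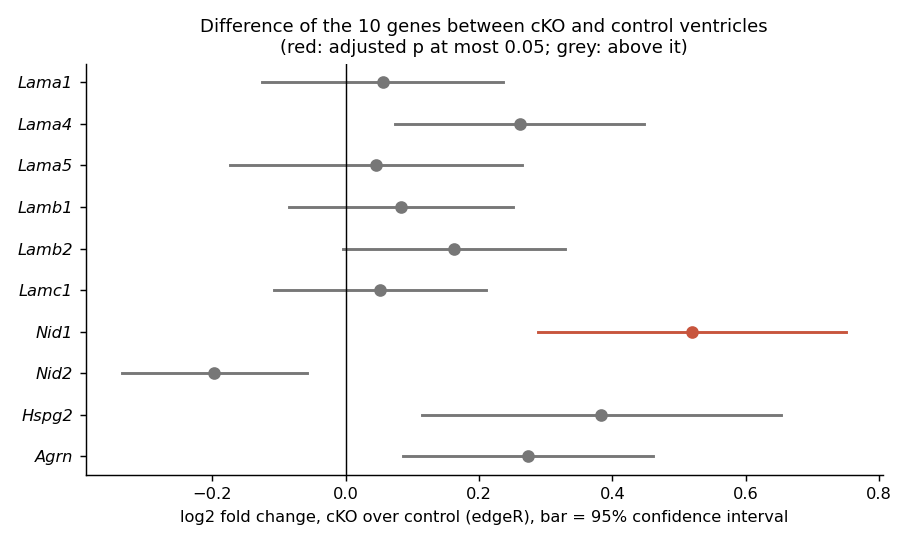
Log2 fold change of cKO over control from edgeR for each of the 10 genes (points) with its 95% confidence interval (bars), red where the adjusted threshold of 0.05 was passed. Nid1 at 0.52 is the 1 red point, Nid2 at −0.20 is the 1 gene on the left, and the intervals of Hspg2, Agrn and Lama4 lie right of 0 without an adjusted p at or below the threshold.

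The libraries of 1 genotype differed in level across the 10 genes in a shared way, and whether other genes share it was not tested. Replicate 3 was the lowest of the cKO libraries for all 10 genes, and replicate 4 was the highest for 6 and replicate 1 for 3. Among the controls, replicate 2 was the highest for 9 genes and replicate 3 the lowest for 6. The coefficient of variation between libraries ran from 8.09% (Nid2) to 20.6% (Hspg2) in cKO and from 5.42% (Nid2) to 14.1% (Hspg2) in control.

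Per length, 5 transcripts stood at the top in the control ventricle, where neighbours in the order overlapped while Lama4 lay below the ranges of Nid2 and Lamc1: Nid2 at 142 ± 11.7 TPM, Lamc1 at 129 ± 12.8, Lamb1 at 122 ± 10.8, Hspg2 at 117 ± 19.3 and Lama4 at 100.1 ± 9.07 (mean ± SD, n = 4). Agrn at 74.6 ± 9.56 TPM and Nid1 at 73.4 ± 9.71 TPM came next, below the range of Lama4 and overlapping each other. Lamb2 at 39.5 ± 5.25, Lama5 at 18.6 ± 2.40 and Lama1 at 3.55 ± 0.326 TPM each lay in a range of their own. The commonest chain of each class in these ventricles was thus Lama4, Lamb1 and Lamc1.

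In cKO the order of the lower 3 was the same, with Lamb2 at 45.1 ± 4.34, Lama5 at 19.5 ± 3.85 and Lama1 at 3.77 ± 0.431 TPM in separate ranges. Among the upper 7, neighbours in the order overlapped, while Agrn lay below the ranges of Hspg2, Lamc1, Lamb1 and Nid2. These 7 were Hspg2 at 156 ± 33.9, Lamc1 at 137 ± 15.5, Lamb1 at 132 ± 17.5, Nid2 at 127 ± 11.2, Lama4 at 122 ± 19.9, Nid1 at 108 ± 21.4 and Agrn at 92.1 ± 13.1 TPM. Nid2 was the first in the control order and the fourth in the cKO order, and Hspg2 went from the fourth to the first place.

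**Figure D4:**
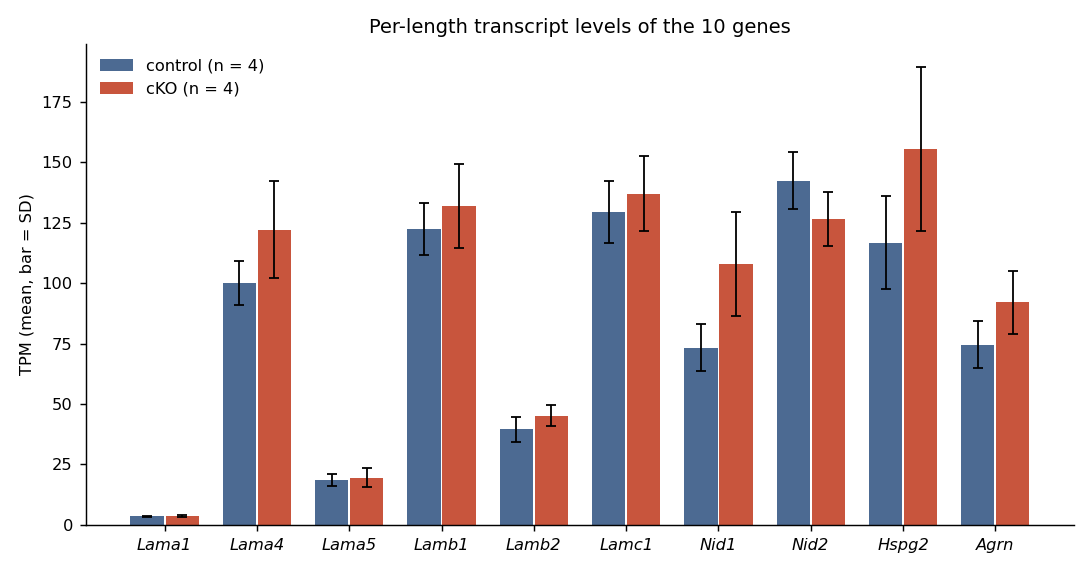
Mean transcript level (TPM, bars from 0) of the 10 genes in 4 control and 4 cKO libraries, with SD as error bars. Lama4, Lamb1 and Lamc1 are the tallest bars of their chain classes in both groups, at 100.1, 122 and 129 TPM in control, and Lama1 is the lowest at 3.55 TPM.

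The makeup of the laminin chain classes differed little between the genotypes. Lama4 made up 81.7% ± 2.30 of alpha chain transcripts (Lama1 to Lama5) in cKO and 79.7% ± 1.16 in control (SD, n = 4; two-sided exact permutation p = 0.143, adjusted 0.286). Lama5 made up 13.2% ± 2.51 and 14.8% ± 0.871 (exact permutation p = 0.314, adjusted 0.371), and Lama1 made up 2.57% ± 0.458 and 2.84% ± 0.284 (exact permutation p = 0.371, adjusted 0.371). Lama5 thus supplied most of what Lama4 did not, in both groups.

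Lamb1 supplied 73.9% ± 0.980 of beta chain transcripts in cKO and 75.2% ± 0.795 in control (exact permutation p = 0.114, adjusted 0.286), with Lamb2 making up nearly all of the remainder. Lamc1 was 97.7% ± 0.475 and 97.2% ± 0.483 of gamma chain transcripts (exact permutation p = 0.200, adjusted 0.320). Apart from the nidogen share, no share separated the groups.

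Summed by class, alpha chains came to 149 ± 21.3 TPM in cKO and 126 ± 11.8 in control, beta chains to 178 ± 21.8 and 163 ± 16, and gamma chains to 140.1 ± 15.7 and 133 ± 13.1. All 3 sums overlapped between the groups. The ratio of alpha to gamma transcripts, given as a description since it was picked out among 9 class quantities after their values were seen, was 0.935 to 0.958 in controls and 0.981 to 1.17 in cKO.

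Other laminin chains were present at low levels. The 5 tested averaged 0.502 to 3.13 TPM, and 0 passed the adjusted threshold in edgeR, DESeq2 or limma-voom or had an unadjusted p under 0.05. Lama2, the alpha chain of mature muscle basement membranes, was the most abundant of them at 12.4 to 17.2 CPM in control and 14.4 to 23.5 CPM in cKO (log2 fold change 0.20, adjusted p = 0.646). Lamb3, a chain of epithelial laminin, had the smallest p of the 5, with a log2 fold change of 0.34 (adjusted p = 0.555).

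Of 82 related genes tested in 7 lists, 8 (9.76%, beside 0.858% of all genes) passed the adjusted threshold, 4 higher and 4 lower in cKO, and the median log2 fold change of the 82 was 0.001. Their levels differ from those of a typical gene, and the lists were chosen with earlier results of these data known. The share is thus a description and no evidence of an excess. The lists left out the 10 genes, so the 8 could include no nidogen, perlecan or agrin. The 5 other laminin chains were in the lists, and 0 of them passed.

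Among 8 genes for the chains of collagens IV, XV and XVIII, 4 had higher and 4 had lower estimates in cKO. An unadjusted p under 0.05 was reached by 6 of the 8, against 12.8% of all genes, and 1 fell past the adjusted threshold. This was Col4a4, a chain of the collagen IV of kidney and other adult membranes, which was scarce at 1.83 to 2.63 CPM in control and 0.607 to 1.16 CPM in cKO (log2 fold change −1.34, adjusted p = 0.0131). Col4a1, which with Col4a2 makes the ubiquitous collagen IV, was the most abundant of the list and was measured at 1251, 1319, 951 and 1086 CPM in control replicates 1 to 4 and at 1623, 1456, 1142 and 1855 CPM in cKO replicates 1 to 4. Its order of libraries within cKO, replicate 4 highest and replicate 3 lowest, was also that of 6 of the 10 genes, and its log2 fold change was 0.40 (SE 0.12, adjusted p = 0.143).

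Of the 15 other basement membrane proteins tested, 13 had lower means in cKO (49.8% of all genes had an estimate above 0) and 2 fell past the threshold, with a list median of −0.28. In DESeq2 5 passed, these 2 with Frem2 and Ntn1, also lower, and Hmcn1, which was higher in cKO, and in limma-voom 2 passed. Npnt, which encodes nephronectin, a ligand of integrin alpha 8 beta 1, fell from 45.7 to 55.4 CPM in control to 29.4 to 34.0 CPM in cKO (log2 fold change −0.65, SE 0.07, adjusted p = 0.000589). Fras1, a large matrix protein of embryonic epithelial basement membranes, fell from 123 to 148 CPM to 99.4 to 112 CPM (log2 fold change −0.39, adjusted p = 0.0139). Sparc, a collagen-binding matricellular protein and the most abundant of the list, had a log2 fold change of −0.05 (adjusted p = 0.813).

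Of 14 receptor genes tested, 2 rose in edgeR and DESeq2, and 1 of them, Itga6, in limma-voom. Itga6, the alpha subunit of the laminin-binding integrins alpha 6 beta 1 and alpha 6 beta 4, was measured at 277, 317, 298 and 309 CPM in control replicates 1 to 4 and at 426, 380.4, 335 and 364 CPM in cKO replicates 1 to 4, without overlap (log2 fold change 0.33, SE 0.07, adjusted p = 0.0416). Itga1, the alpha subunit of a receptor for collagen IV and laminin, was at 122 to 130.2 CPM in control and 133 to 196 CPM in cKO (log2 fold change 0.40, adjusted p = 0.0422). Itgb1, the beta subunit that both pair with and the most abundant gene of the list, differed little (log2 fold change 0.02, adjusted p = 0.926), and Dag1, which encodes dystroglycan, had a log2 fold change of −0.15 (adjusted p = 0.413). The call of Itga1 was lost in limma-voom (adjusted p = 0.0655), with filterByExpr (adjusted p = 0.0511) and without any 1 library other than cKO replicate 3, at adjusted p-values of up to 0.141, and that of Itga6 without any control or cKO replicate 1 or 2, at up to 0.137.

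Of the 11 genes for the glycosylation of dystroglycan, which gives it its laminin-binding sugar, 0 passed the adjusted threshold in edgeR, DESeq2 or limma-voom, and 1 of them had an unadjusted p under 0.05. Of the 18 genes for heparan sulfate synthesis and for collagen and matrix modification, 0 passed in edgeR and limma-voom, 1 in DESeq2 (Serpinh1), and 5 had an unadjusted p under 0.05. The smallest p of these was that of Pxdn, the peroxidase that crosslinks collagen IV (log2 fold change 0.24, adjusted p = 0.184), and the most abundant was Serpinh1, a collagen chaperone (log2 fold change −0.18, adjusted p = 0.186).

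Of 11 matrix proteases and inhibitors, 2 rose and 1 fell in edgeR, and 7 had an unadjusted p under 0.05. In DESeq2 4 passed the adjusted threshold, with Prss12 added, and in limma-voom 2 passed (Mmp2 and Tll1). Mmp2, a gelatinase that can cleave collagen IV, rose from 59.6 to 80.6 CPM to 87.7 to 103 CPM (log2 fold change 0.42, SE 0.09, adjusted p = 0.0327). Mmp9, the other gelatinase, was near the limit of detection at 0.0401 to 0.283 CPM in control and 0.415 to 1.29 CPM in cKO (log2 fold change 2.33, SE 0.45, adjusted p = 0.0221). Tll1, a protease of the tolloid family, fell from 3.86 to 4.89 CPM to 2.16 to 2.44 CPM (log2 fold change −0.99, adjusted p = 0.00513). The calls of Tll1 and Npnt held without any 1 library. That of Mmp2 was lost without control replicate 3 or 4 or cKO replicate 1 or 4 (adjusted p up to 0.132), that of Mmp9 without control replicate 1, 2 or 4 or cKO replicate 1 (up to 0.0898) and in limma-voom (0.0734), that of Fras1 without control replicate 2 or 3 or cKO replicate 1 (up to 0.0704), and that of Col4a4 without cKO replicate 1 (0.0566).

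**Figure D5:**
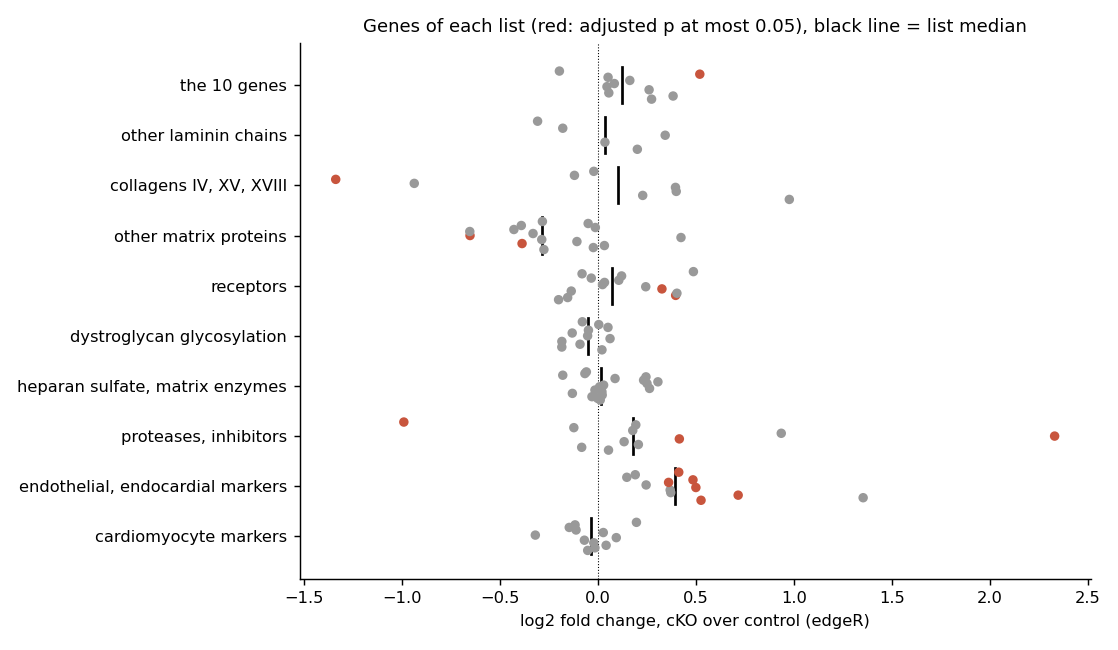
Log2 fold changes (cKO over control, edgeR) of every tested gene of the 10 basement membrane genes, of the 7 related lists and of 2 lists of cell type markers, with 1 point per gene (red for genes past the adjusted threshold) and a black line at each list's median. The 10 genes have their median at 0.12, the other matrix proteins at −0.28 and the endothelial and endocardial markers at 0.39.

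The genes whose libraries most resembled those of Nid1, by the root mean square difference of log2 CPM about each gene's own mean over the 8 libraries, were Dchs1 (0.0700), a large protocadherin, Plxnd1 (0.0715), a semaphorin receptor of endothelial cells, and Jag2 (0.0758), a Notch ligand, out of 14301 genes compared. Their log2 fold changes were 0.42, 0.44 and 0.50, of which that of Jag2 passed the adjusted threshold (adjusted p = 0.0214). Among the other 9 genes, Hspg2 was the nearest to Nid1 at rank 53, followed by Agrn at rank 63 and Lama4 at rank 464, whereas Nid2 was at rank 9703. The measure spans both genotypes, so these ranks include the difference between the groups.

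Markers of other cells moved with genotype as well. All 12 endothelial and endocardial markers had higher means in cKO and 6 rose past the threshold (Emcn, Cdh5, Flt1, Pecam1, Tie1 and Nfatc1), with 11 past it in DESeq2, 3 in limma-voom and a median log2 fold change of 0.39. Their summed level was 1565, 1517, 1305 and 1482 CPM in control replicates 1 to 4 and 2046, 1711, 1671 and 2188 CPM in cKO replicates 1 to 4, so within cKO replicate 4 was the highest and replicate 3 the lowest, as for 6 of the 10 genes (Lama5, Lamb2, Nid1, Nid2, Hspg2 and Agrn). Within control the sum was highest in replicate 1, whereas 9 of the 10 genes were highest in replicate 2. Both the sum and 6 of the 10 genes were lowest in control replicate 3. In bulk tissue, fewer or more cells of a type and less or more RNA per cell cannot be told apart, and the part of these markers in the results for the 10 genes was not tested.

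The 8 macrophage markers were also higher in cKO in their means, at a summed 7.82 to 34.2 CPM against 4.25 to 8.81 CPM, and 2 (C1qb and C1qc) passed the threshold in edgeR, 4 in DESeq2 and 0 in limma-voom. The 8 cushion mesenchyme markers summed to 2289.8 to 2705 CPM in cKO and 1889.9 to 2242 CPM in control, with 1 (Vcan, the proteoglycan of the cardiac jelly) past the threshold. Epicardial markers (8 genes) summed to 344 to 522 and 438 to 464 CPM, smooth muscle markers (6 genes) to 2805 to 3312 and 3091 to 3832 CPM, and erythroid markers (8 genes) to 1369 to 4802 and 1499 to 4649 CPM, in cKO and control respectively, with 0 past the threshold in edgeR and 2 epicardial markers (Aldh1a2 and Tbx18) past it in DESeq2. Visceral endoderm and liver markers (7 of 8 tested) summed to 4.97 to 6.69 CPM in cKO and 7.15 to 34.9 CPM in control, without overlap, with control replicate 1 at 34.9 CPM and the other controls at up to 9.33 CPM. Of these 7, 6 had lower means in cKO (median log2 fold change −1.74), with 0 past the threshold in edgeR, 6 at an unadjusted p under 0.05 and 2 (Apob and Ttr) past the threshold in DESeq2. The part of the macrophage, cushion and visceral endoderm markers in the results for the 10 genes was likewise not tested.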

How the data were processed

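The authors deposited 2 tables with 1 column per library, a table of unnormalised read counts by gene symbol and a table of TPM values with gene positions. The submitters' processing notes name Trim Galore 0.6.7, HISAT2 2.2.1, StringTie 2.2.1 and featureCounts. The methods instead credit the count matrix to the nf-core/rnaseq workflow, and which of these tools made the deposited counts, and with which strand setting, is not given in the sources used here. Stated read lengths conflict between 150 and 100 bp. Methods name GRCm39, but the deposited starts of the 6 genes with RefSeq windows lay within 1000 bases of their GRCm38.p6 starts, and those of 0 of the 10 within 1000 bases of their GRCm39 GENCODE starts, so positions are given as GRCm38.

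Counts were tested with edgeR 4.0.16 (quasi-likelihood, TMM, design with condition, total of at least 8 counts) in R 4.3.3 with Benjamini-Hochberg adjustment over 26820 genes. CPM use TMM-scaled library sizes. Shares of TPM were compared by two-sided exact permutation over 70 groupings. Total counts of 47559845 to 56660938 leave counting error small beside the spread between libraries. Each library was taken as 1 biological replicate, since the methods name the animal or embryo as the experimental unit and describe pooling for the proteomics alone.

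The 10 genes and all lists were chosen with earlier results of these data known. All 10 were described; of each related list, genes past the threshold and otherwise those with the smallest p and the highest TPM were named, and for Nid1 the 3 genes with the nearest profile. Col4a1, the other collagen genes besides Col4a4, Sparc, Itgb1 and Dag1 were named after their values were seen. Results for some genes that the rule names are not reported here. Lists held 84 related genes, of which Tinag and Musk were under the count filter. Alternatives were DESeq2 1.42.0, limma-voom 3.58.1, DESeq2 size factors, filterByExpr, no filter, hemoglobin genes left out, a replicate block, removal of a length and GC trend (loess span 0.3), limma on log2 TPM (pseudocounts 1 and 0.1, and mean TPM at least 1), and each library left out. Shares recomputed from counts and transcript lengths were added after seeing the data. The count methods (edgeR, also with the block or with the trend removed, limma-voom and DESeq2) were tested on simulated data. A limit on the share of false calls was set there for all of them but DESeq2. The DESeq2 calls, 867 of all genes where edgeR made 230, were thus not held to that limit. Proteomic data were not used here.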

Additional observations from a re-analysis of the deposited data

Results flagged for a closer look

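In 36 groups of 4 values (the levels and shares of the 10 genes in each genotype), 3 held a value far from the other 3, where about 1 in 20 groups would by chance. Lama5 stood at 159 CPM in cKO replicate 4, against 109 to 116 CPM in the other cKO libraries. Lama4 made up 81.4% of alpha chain transcripts in control replicate 4, against 79.0% to 79.3% in the other controls. Agrn made up 41.4% of the summed TPM of Agrn and Hspg2 in cKO replicate 3, against 35.9% to 36.6% in the other cKO libraries.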

How the results depend on the processing

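The median log2 fold change of the 10 genes was between 0.08 and 0.18 in every alternative run. Of the 10 genes, 1 passed the adjusted threshold with all libraries; 4 passed without a count filter (Lama4, Nid1, Hspg2 and Agrn), 2 with the length and GC trend removed (Nid1 and Nid2), and 0 in each of the 3 limma fits to log2 TPM. With a library left out, 0 to 4 passed, and 0 to 1 also passed the fold change of 1.5. Over all genes tested, 867 passed in DESeq2, 878 without a filter, 354 with the trend removed, and 2, 5 and 35 in limma on log2(TPM + 1), log2(TPM + 0.1) and log2(TPM + 1) at a mean TPM of at least 1, with 67 to 744 when a library was left out. Of the related genes, 13 passed in DESeq2, 14 without a filter, 0, 0 and 1 in the TPM fits, and 2 to 14 with a library left out. The 744, 14 and 4 came without cKO replicate 3. The log2 fold change of Lama1 turned to −0.0073 without cKO replicate 2 (range over left-out libraries −0.0073 to 0.101). That of Lama5 turned to −0.0048 without control replicate 4, −0.0915 without cKO replicate 4 (range −0.0915 to 0.115) and −0.0174 with the trend removed, and that of Lamc1 to −0.0084 there; the cause was not tested. Leaving out a library moved the share difference of Lama5 among alpha chains between −2.64 and −0.586 percentage points and that of Agrn between −2.85 and −1.03.

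Replicate numbers are shared by the groups, but the correlations of same-numbered libraries were −0.19, −0.03, 0.006 and −0.14 over 14302 genes, so they were not taken as pairs. With the replicate block, 2 of the 10 genes passed (Nid1 and Hspg2, the latter at an adjusted p of 0.0309) and 380 of all genes. With the block and the trend removed together, 3 of the 10 passed (Nid1, Nid2 and Hspg2), 14 related genes and 472 of all genes, and Lama5 and Lamc1 were at −0.022 and −0.0089.

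Counting depth limits the scarce genes, above all Mmp9, Col4a4 and the macrophage markers, and the 4 libraries a group limit the rest. Dividing counts by a transcript length from the TPM table was not run.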
